A study of Mus musculus with 12 samples.

Results

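The GDNF family of ligands and receptors was followed in a mouse glioma series through 7 genes, taken by symbol from the 49671 Ensembl genes of the deposited count table: the ligands Gdnf and Nrtn, the co-receptors Gfra1, Gfra2 and Gfra4, the receptor tyrosine kinase Ret and the adhesion molecule Ncam1. The tissue was brain, fixed in formalin and embedded in paraffin, and its RNA was sequenced as 12 libraries in 4 groups of 3. The groups are tumours of the tumour genotype IDH1_R132H (the mutant isocitrate dehydrogenase 1 found in human diffuse glioma), tumours of the genotype IDH1WT (the wild-type enzyme), tumours of the genotype PDGFA (the A chain of platelet-derived growth factor) and normal brain. All mice carry floxed alleles that include Cdkn2a and Atrx. The tumour-bearing mice are N::TVA, where TVA is the avian receptor through which RCAS viruses infect mouse cells, and the normal brains come from TVA-negative mice of the same floxed background. The labels spell out neither the promoter behind N::TVA nor the age of the mice nor whether the IDH1 tumours also received PDGFA. They do not say whether the libraries of a group come from separate mice, so p-values measure the spread between these libraries, which may be technical.

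The ligands of this family signal in a relay. GDNF and neurturin (the product of Nrtn) bind co-receptors that are anchored in the outer membrane by a lipid tail and have no kinase of their own, and ligand and co-receptor together bring in and activate RET. GDNF prefers GFRA1, neurturin prefers GFRA2 and persephin prefers GFRA4. NCAM, the product of Ncam1, is an alternative partner through which GDNF and GFRA1 can signal without RET. In brain the family is known for supporting dopamine neurons and for guiding the migration and wiring of other neurons. The members lie on different chromosomes of GRCm38 and all are protein coding: Gdnf at chr15:7810846-7837575 (plus strand), Nrtn at chr17:56751325-56757530 (minus strand), Gfra1 at chr19:58235604-58455909 (minus strand), Gfra2 at chr14:70890120-70979838 (plus strand), Gfra4 at chr2:131039632-131043088 (minus strand), Ret at chr6:118151745-118197718 (minus strand) and Ncam1 at chr9:49502136-49798925 (minus strand). Their Ensembl identifiers are ENSMUSG00000022144 (Gdnf), ENSMUSG00000039481 (Nrtn), ENSMUSG00000025089 (Gfra1), ENSMUSG00000022103 (Gfra2), ENSMUSG00000027316 (Gfra4), ENSMUSG00000030110 (Ret) and ENSMUSG00000039542 (Ncam1). Antisense genes overlap Gfra1 and Ncam1, and a microRNA gene lies inside Gfra4. Without a stated strand setting, reads of such overlapping genes cannot be told apart; Gfra2 has no overlapping gene. The co-receptor genes are paralogs, and whether reads of similar stretches were split between them is not stated.

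Libraries held 6507923 to 14277395 counts in genes. A pair of libraries stand apart. In IDH1_R132H tumour 3 a single gene, Gm42418, took 35.6% of counts, against 0.218% to 0.855% in the other 11 libraries. In PDGFA tumour 1 the 10 markers of oligodendrocyte precursors summed to 769 counts per 1000000 (CPM, scaled with TMM factors), within the 761 to 813 CPM of normal brains and below the 1704 to 8328 CPM of the other 8 tumours. In other markers it differed from normal brains. Oligodendrocyte markers summed to 11431 CPM, against 3471 to 3541 CPM in normal brains. Astrocyte markers summed to 1005 CPM, against 4839 to 4953 CPM, and microglia and macrophage markers to 28.4 CPM, against 102 to 175 CPM. Its neuron and dopamine neuron sums, 6387 and 109 CPM, were the highest of the 12 libraries. Normal brains 1 and 2 were closer to each other, at a chi-square of 2.47 per gene, than either was to normal brain 3, at 27.8 and 27.0, and the 3 were kept as separate libraries. If normal brains 1 and 2 are not independent of each other, n = 3 overstates the normal group, and the labels do not settle this. Tests used edgeR's quasi-likelihood model on all 12 libraries with Benjamini-Hochberg adjustment over the 17812 genes tested, and a gene was called at an adjusted p under 0.05. All 7 members passed the filter on low counts.

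Levels of the members were compared as CPM per kilobase of exon (RPKM). Ncam1 was highest in every group, with means of 42.2 RPKM in IDH1_R132H tumours, 37.7 RPKM in IDH1WT tumours, 39.6 RPKM in PDGFA tumours and 32.1 RPKM in normal brain. Among co-receptors the order differed between tumours and normal brain. Gfra1 averaged 20.4, 16.3 and 12.5 RPKM in IDH1_R132H, IDH1WT and PDGFA tumours, against 7.69 RPKM in normal brain. Gfra2 averaged 17.3, 10.7 and 8.47 RPKM in the same tumour groups, against 10.5 RPKM in normal brain, and Gfra4 averaged 8.41, 6.61 and 10.3 RPKM, against 11.1 RPKM in normal brain. Ret lay below its co-receptors, at 3.56, 3.74 and 3.31 RPKM in the tumour groups and 4.25 RPKM in normal brain. The ligands were near the limit of detection, with means under 1 RPKM in every group.

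**Figure D1:**
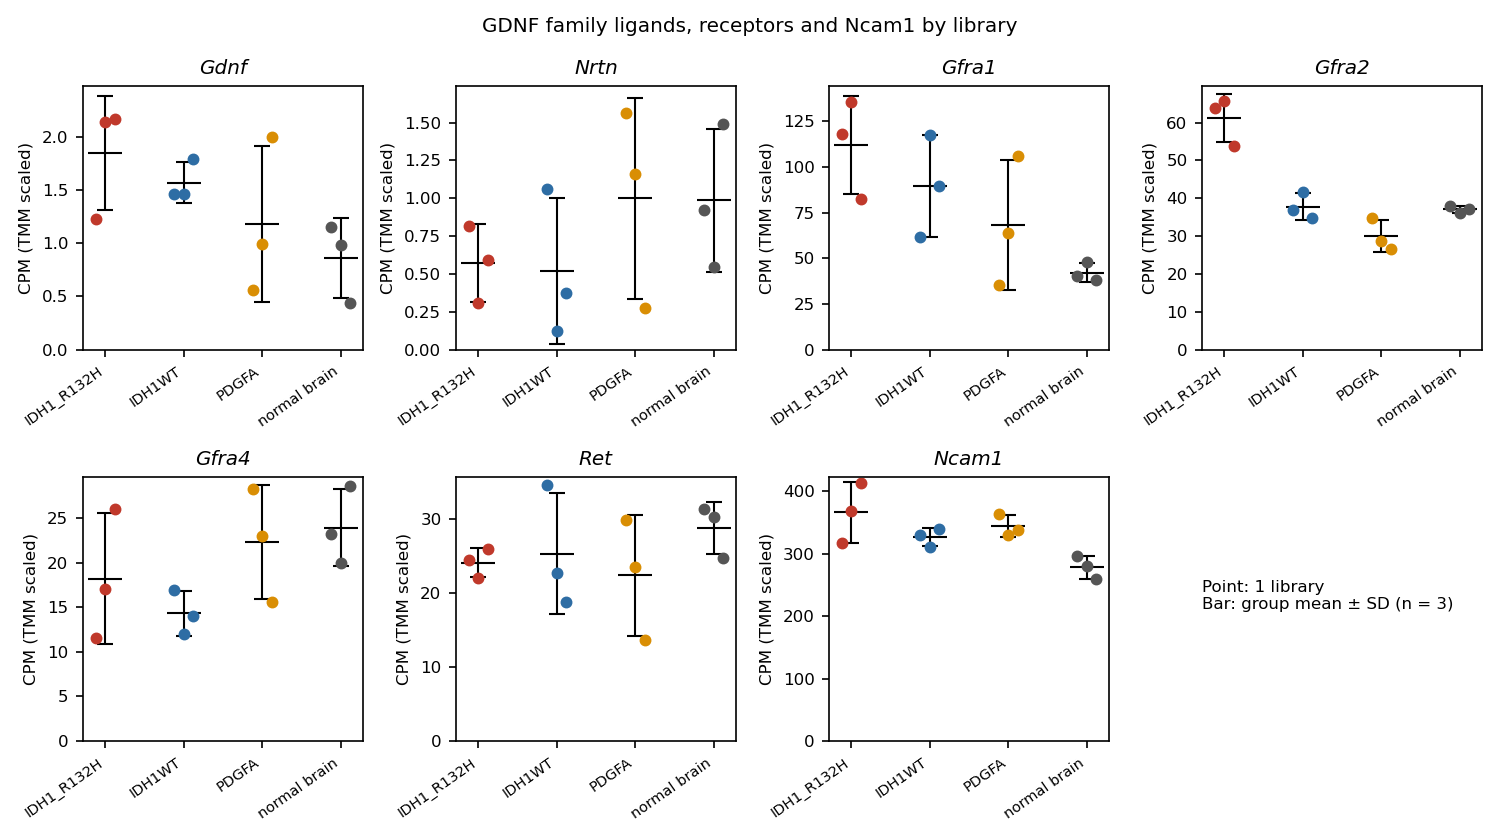
Level of each of the 7 members (CPM, TMM scaled, vertical axes from 0) in the 12 libraries, by group; each point is a library and the bar is the group mean with its SD (n = 3). Gfra2 lies between 53.9 and 65.7 CPM in IDH1_R132H tumours and between 26.6 and 41.7 CPM in all other libraries, while Gfra1 is spread widely within each tumour group.

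Gdnf, the ligand of GFRA1, gave 5 to 22 reads per library. Its level was 1.23, 2.14 and 2.17 CPM in IDH1_R132H tumours 1 to 3, 1.46, 1.46 and 1.79 CPM in IDH1WT tumours, 0.559, 0.995 and 1.99 CPM in PDGFA tumours, and 1.15, 0.988 and 0.438 CPM in normal brains. All IDH1_R132H and IDH1WT tumours were above all normal brains, and PDGFA tumours overlapped them. Such a lack of overlap, in either direction, was common: 38.2% of all genes for IDH1_R132H tumours and 31.9% for IDH1WT tumours. The log2 fold change of Gdnf was 1.11 (SE 0.516) for IDH1_R132H tumours over normal brain and 0.89 (SE 0.506) for IDH1WT tumours over normal brain. Neither passed the test (edgeR, adjusted p = 0.197 and 0.364). At these few reads a difference in Gdnf was not established, which does not show that the levels are alike.

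Nrtn, the ligand of GFRA2, gave 1 to 17 reads per library. Its level was 0.818, 0.305 and 0.592 CPM in IDH1_R132H tumours, 1.06, 0.122 and 0.376 CPM in IDH1WT tumours, 1.57, 1.161 and 0.272 CPM in PDGFA tumours, and 0.924, 0.549 and 1.49 CPM in normal brains. The groups overlapped throughout. The log2 fold change of all tumours over normal brain was -0.56 (edgeR, SE 0.582, adjusted p = 0.603). The levels of the ligand and of its preferred co-receptor did not go together across libraries: Nrtn and Gfra2 had a Pearson r of -0.17 and a Spearman rho of -0.16 over the 12 libraries, given as a description of low counts. The remaining ligands of the family were scarcer still. Artn (artemin) had 0 to 7 reads per library, Pspn (persephin) 0 to 2, and Gdf15, the ligand of the distant relative Gfral, 0 to 11, as had Gfral itself; none of these 4 passed the filter, and none was tested.

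Gfra2 was selected on its values, as the gene with the smallest p of the 17812 in IDH1_R132H tumours against the other tumours, so its contrasts are given as a description with no test. It was higher in the IDH1_R132H tumours than in every other library of the series. Its level was 63.9, 65.7 and 53.9 CPM in IDH1_R132H tumours 1 to 3, 36.8, 41.7 and 34.7 CPM in IDH1WT tumours, 34.8, 28.6 and 26.6 CPM in PDGFA tumours, and 37.9, 36.0 and 37.3 CPM in normal brains. The lowest IDH1_R132H value came from tumour 3, the library with the large Gm42418 share, and it still exceeded the highest value elsewhere, that of IDH1WT tumour 2. The order of the group means was IDH1_R132H (61.2 ± 6.38 CPM), IDH1WT (37.7 ± 3.59 CPM), normal brain (37.1 ± 0.96 CPM) and PDGFA (30.0 ± 4.28 CPM; SD, n = 3 each). IDH1WT tumours and normal brain overlapped, as did IDH1WT and PDGFA tumours, and the 3 PDGFA tumours all lay below the 3 normal brains. Against normal brain, 38.2% of all genes did not overlap in IDH1_R132H tumours and 15.8% in PDGFA tumours, in either direction.

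In log2 terms Gfra2 was 0.87 (SE 0.125) higher in IDH1_R132H tumours than in the other tumours, which is 1.82-fold. It was 0.70 (SE 0.149) higher than in IDH1WT tumours and 1.03 (SE 0.150) higher than in PDGFA tumours, comparisons in which 6.75% and 13.1% of all genes had groups that did not overlap. Against normal brain it was 0.73 (SE 0.149) higher in IDH1_R132H tumours, 0.03 (SE 0.148) in IDH1WT tumours and -0.31 (SE 0.149) in PDGFA tumours. The tumour-to-tumour and tumour-to-normal differences share libraries and are not independent of each other. With IDH1_R132H tumour 3 and PDGFA tumour 1 left out, the difference from the other tumours was 1.005 on the log2 scale. Of all genes, 2.32% separated IDH1_R132H tumours from the other tumours without overlap, and edgeR called 0 genes (0%) there, with 1147 at an unadjusted p under 0.05. DESeq2 called 24 genes in that comparison, and limma on the deposited log values called 1.

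The other 6 members showed no such step between tumour genotypes. None was called and none separated IDH1_R132H tumours from the other tumours. edgeR gave 0 of the 6 at an unadjusted p under 0.05, and DESeq2 and limma called 0. Their log2 fold changes in that comparison were 0.52 (SE 0.290) for Gfra1, 0.42 (SE 0.422) for Gdnf, 0.13 (SE 0.129) for Ncam1, 0.02 (SE 0.256) for Gfra4, 0.01 (SE 0.241) for Ret and -0.43 (SE 0.713) for Nrtn. edgeR also called 0 of the 6 between IDH1_R132H and IDH1WT, between IDH1_R132H and PDGFA, and between IDH1WT and PDGFA tumours, with 0 of the 6 at an unadjusted p under 0.05 in each. Over all genes edgeR called 0% in each of these comparisons, and 475, 1940 and 1038 genes had an unadjusted p under 0.05.

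Gfra1, the co-receptor of GDNF, was the member with the largest tumour-to-normal difference. It was 2.66-fold higher in IDH1_R132H tumours than in normal brain, a log2 fold change of 1.41 (SE 0.349) that passed the test (edgeR, adjusted p = 0.0329). Its level was 118, 135 and 82.5 CPM in IDH1_R132H tumours 1 to 3, 61.6, 118 and 89.3 CPM in IDH1WT tumours, 35.2, 63.7 and 106 CPM in PDGFA tumours, and 40.4, 48.1 and 37.8 CPM in normal brains. All IDH1_R132H and IDH1WT tumours lay above the normal brains, and PDGFA tumour 1 lay below all of them. For these genotypes 38.2% and 31.9% of all genes did not overlap with normal brain, in either direction. The log2 fold change of Gfra1 was 1.09 (edgeR, SE 0.347, adjusted p = 0.118) for IDH1WT tumours and 0.70 (edgeR, SE 0.345, adjusted p = 0.511) for PDGFA tumours over normal brain.

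For the 9 tumours together, Gfra1 averaged 89.9 ± 32.4 CPM, against 42.1 ± 5.34 CPM in normal brain (SD, n = 9 and 3), a log2 fold change of 1.07 (edgeR, SE 0.299, adjusted p = 0.0574). The Gfra1 calls rest on few libraries. The call in IDH1_R132H tumours was lost without IDH1_R132H tumour 1 (adjusted p = 0.0702), without IDH1_R132H tumour 2 (0.125) and without normal brain 1, 2 or 3 (0.128, 0.103 and 0.11), all by edgeR. Without PDGFA tumour 1, the tumours together passed the test (log2 fold change 1.17, adjusted p = 0.00699), as they did without IDH1WT tumour 1 (0.0393) or PDGFA tumour 3 (0.0447). Without both IDH1_R132H tumour 3 and PDGFA tumour 1, the log2 fold change was 1.23 in the tumours together (edgeR, adjusted p = 0.00384) and 1.595 in IDH1_R132H tumours (edgeR, adjusted p = 0.00442). DESeq2 called Gfra1 in the tumours together (adjusted p = 0.00559) and in IDH1WT tumours (adjusted p = 0.0388).

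Gfra1 moved from library to library with the markers of oligodendrocyte precursors, the cells that give rise to myelinating glia. The 10 markers, among them Pdgfra, Cspg4, Olig2 and Sox10, had no zero count, and their summed level was 3930 to 8328 CPM in IDH1_R132H tumours, 2790 to 7761 CPM in IDH1WT tumours, 769 to 5027 CPM in PDGFA tumours and 761 to 813 CPM in normal brains. Of the 10, edgeR called 9 higher in tumours than in normal brain, where 3.71% of all genes were called higher. It called 10 higher in IDH1_R132H tumours (4.83% of all genes), 7 in IDH1WT tumours (1.57%) and 0 in PDGFA tumours, where 0.303% of all genes were called and 8 of the 10 had an unadjusted p under 0.05. In that comparison 1887 of all 17812 genes had an unadjusted p under 0.05 by edgeR. In PDGFA tumours DESeq2 called 6 of the 10, against 2.72% of all genes, and limma called 0 of either. On log2 scales Gfra1 and the summed markers had a Pearson r of 0.98 and a Spearman rho of 0.979 over the 12 libraries. Within the 9 tumours r was 0.98 and rho 0.967, and r was 0.973 without the pair of tumours farthest from the median marker level. Over the 12 libraries Gfra1 also had an r of -0.82 with the neuron markers and of -0.725 with the dopamine neuron markers. Its r was -0.64 with the oligodendrocyte markers and 0.68 with the microglia and macrophage markers. Over the 9 tumours the r of Gfra1 with the oligodendrocyte markers was -0.915. The libraries share their scaling, and the correlations are a description. PDGFA tumour 1, at 35.2 CPM of Gfra1 and 769 CPM of markers, lay within the normal brains in the markers and below all 3 of them in Gfra1. In bulk tissue a change in the number of cells of a type and a change in RNA per cell cannot be told apart, and the part of precursor content in the Gfra1 difference was not tested.

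Gfra2 and the same markers had an r of 0.48 and a rho of 0.378 over the 12 libraries, and an r of 0.54 and a rho of 0.533 over the 9 tumours. The difference from the correlation of Gfra1 was not tested. IDH1WT tumour 2 held 7761 CPM of precursor markers and 41.7 CPM of Gfra2, and PDGFA tumour 3 held 5027 CPM of markers and 26.6 CPM of Gfra2. IDH1_R132H tumours 1 to 3 held 7214, 8328 and 3930 CPM of markers, with 63.9, 65.7 and 53.9 CPM of Gfra2. These are the Gfra2 values on which the gene was selected, and the part of precursor content in them was not tested. With the summed neuron markers Gfra2 had an r of -0.02 over the 12 libraries, and of -0.37 without the pair of libraries farthest from the median of those markers. With the markers of myelinating oligodendrocytes, the r was -0.52 over the 12 libraries.

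**Figure D2:**
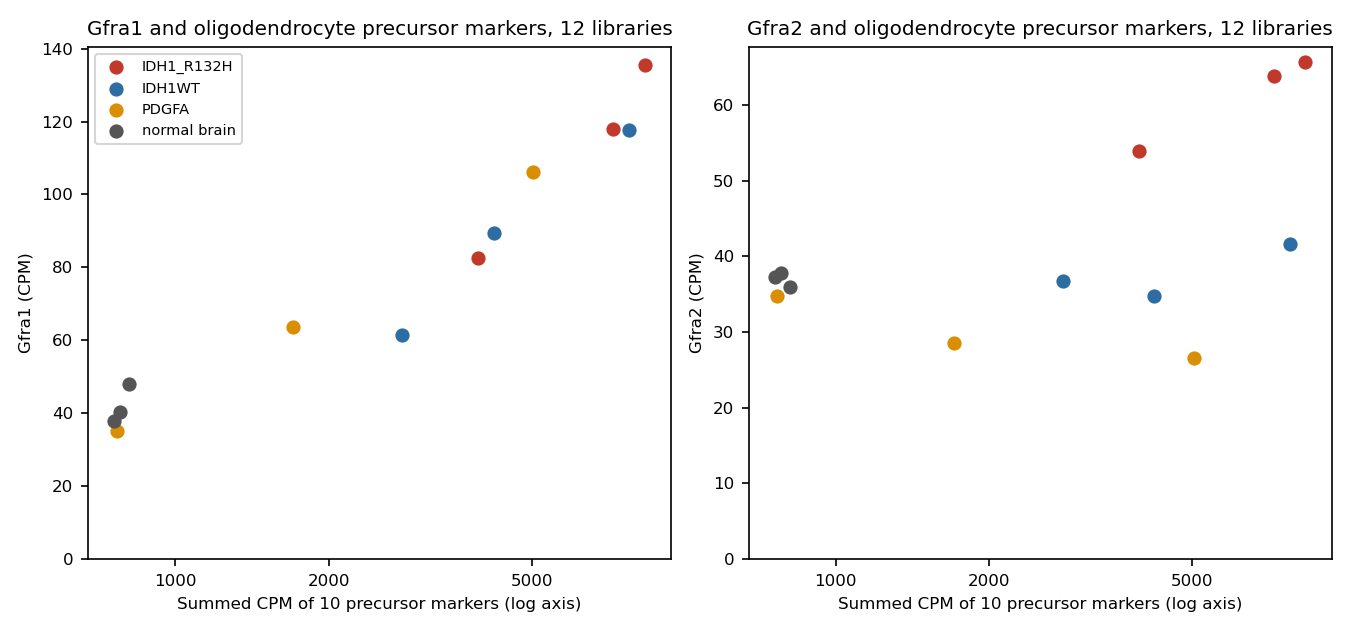
Level of Gfra1 (left) and Gfra2 (right) in CPM against the summed CPM of 10 oligodendrocyte precursor markers (log axis) in the 12 libraries, coloured by group. Gfra1 is higher in libraries with more of the markers (r of 0.98), and the r for Gfra2 is 0.48; Gfra2 was selected on its level in the 3 IDH1_R132H tumours.

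Gfra4, the co-receptor of persephin, was highest in normal brain 3 and in PDGFA tumour 1. Its level was 11.6, 17.0 and 26.1 CPM in IDH1_R132H tumours, 17.0, 11.95 and 14.02 CPM in IDH1WT tumours, 28.3, 23.0 and 15.6 CPM in PDGFA tumours, and 23.2, 20.0 and 28.6 CPM in normal brains. The 3 IDH1WT tumours lay below the normal brains, with a log2 fold change of -0.74 (SE 0.293) that did not pass the test (edgeR, adjusted p = 0.199), and the other tumour groups overlapped them. Between IDH1WT tumours and normal brain 31.9% of all genes did not overlap, in either direction. Gfra4 tracked the 10 neuron markers, with an r of 0.86 and a rho of 0.874 over 12 libraries, and r of 0.84 over the 9 tumours, or 0.558 without the pair of tumours farthest from the median. Those markers summed to 2904 to 6005 CPM in IDH1_R132H tumours, 2405 to 4694 CPM in IDH1WT tumours, 2375 to 6387 CPM in PDGFA tumours and 5156 to 5622 CPM in normal brains. Over the 12 libraries Gfra4 had an r of 0.68 with GABAergic interneuron, 0.63 with striatal neuron and 0.61 with dopamine neuron markers. Its r was 0.62 with the oligodendrocyte markers and -0.78 with the precursor markers. The part of any of these cell types in the Gfra4 values was not tested, nor were the differences between lists.

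The balance between co-receptors was read per kilobase. The ratio of Gfra2 to Gfra1 was 0.839, 0.751 and 1.01 in IDH1_R132H tumours, 0.924, 0.549 and 0.602 in IDH1WT tumours, 1.53, 0.695 and 0.387 in PDGFA tumours, and 1.45, 1.159 and 1.53 in normal brains. In normal brains Gfra2 outweighed Gfra1 in each library, and in 7 of the 9 tumours Gfra1 outweighed Gfra2. The exceptions were IDH1_R132H tumour 3 and PDGFA tumour 1, the libraries that stand apart. Across the 12 libraries Gfra1 and Gfra4 ran in opposite directions (r of -0.79, rho of -0.776), and Gfra1 and Gfra2 were only loosely related (r of 0.46, rho of 0.385).

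**Figure D3:**
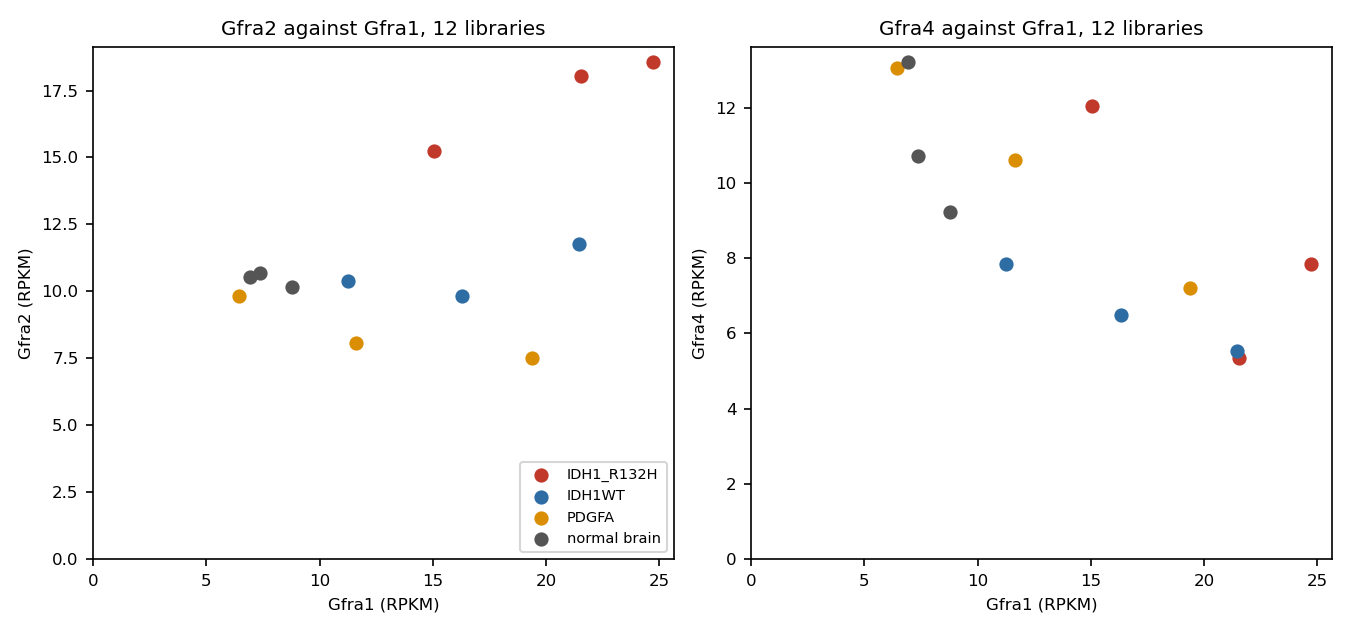
Levels per kilobase (RPKM, axes from 0) of Gfra2 against Gfra1 (left) and of Gfra4 against Gfra1 (right) in the 12 libraries, coloured by group. IDH1_R132H tumours lie at the upper right of the left panel with 15.2 to 18.6 RPKM of Gfra2, and Gfra4 declines as Gfra1 increases in the right panel.

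Ret, the kinase all of these co-receptors share, did not separate any tumour group from normal brain. Its level was 24.4, 21.98 and 25.9 CPM in IDH1_R132H tumours, 34.5, 22.7 and 18.7 CPM in IDH1WT tumours, 29.9, 23.5 and 13.7 CPM in PDGFA tumours, and 31.3, 30.2 and 24.7 CPM in normal brains. The group means, 24.1 ± 1.96, 25.3 ± 8.22 and 22.4 ± 8.15 CPM in the IDH1_R132H, IDH1WT and PDGFA tumours and 28.7 ± 3.54 CPM in normal brain (SD, n = 3 each), lay within the spread of the libraries. The log2 fold change of all tumours over normal brain was -0.27 (edgeR, SE 0.222, adjusted p = 0.502).

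Among the marker lists Ret had its highest r with the dopamine neuron markers, and it went with other neuron markers too. The 7 dopamine neuron markers were Th, Slc6a3, Slc18a2, Ddc, Nr4a2, Pitx3 and En1. Their sum was 47.5 to 64.3 CPM in IDH1_R132H tumours, 31.1 to 94.6 CPM in IDH1WT tumours and 37.3 to 109 CPM in PDGFA tumours. In normal brains it was 69.1 to 79.5 CPM, and 1 of the 7, Pitx3, had a zero count in some library. Ret correlated with the sum at an r of 0.85 and a rho of 0.839 over 12 libraries, and at an r of 0.85 and a rho of 0.883 over the 9 tumours, with an r of 0.787 and 0.882 without the pair of libraries farthest from the median of the markers. With the neuron and GABAergic interneuron markers Ret had an r of 0.72 and 0.66 over the 12 libraries. Without the pair of libraries farthest from the median of each list, these were 0.603 and 0.279. Nrtn had an r of 0.71 with the dopamine neuron markers over the 12 libraries. With the neuron, GABAergic interneuron and precursor markers the r of Nrtn was 0.72, 0.66 and -0.72. The part of dopamine or other neuron content in the Ret values was not tested, nor were the differences between lists. The ratio of Gfra1 to Ret per kilobase was 5.97, 7.61 and 3.94 in IDH1_R132H tumours, 2.20, 6.40 and 5.89 in IDH1WT tumours and 1.46, 3.34 and 9.57 in PDGFA tumours, against 1.60, 1.97 and 1.89 in normal brains. PDGFA tumour 1 was the tumour whose ratio lay below the normal brains.

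Ncam1, the partner of GFRA1 in signalling without RET, was higher in each of the 9 tumours than in each normal brain, by a small margin. Its level was 317, 368 and 413 CPM in IDH1_R132H tumours, 330 (tumour 1), 311 and 340 CPM in IDH1WT tumours, 363, 329 and 338 CPM in PDGFA tumours, and 295, 281 and 259 CPM in normal brains. The tumours averaged 345 ± 31.6 CPM, against 278 ± 18.5 CPM in normal brain (SD, n = 9 and 3), a log2 fold change of 0.31 (SE 0.124) that did not pass the test (edgeR, adjusted p = 0.154). Between tumours and normal brain 7.5% of all genes did not overlap, in either direction. DESeq2 called Ncam1 in tumours against normal brain (adjusted p = 0.0329) and in IDH1_R132H tumours against normal brain (adjusted p = 0.0219). With the precursor markers Ncam1 had an r of 0.48 over the 12 libraries and of -0.20 over the 9 tumours.

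Against normal brain, then, the calls among the 6 members other than Gfra2 were few. In the 9 tumours together edgeR called 0 of the 6, where 5.22% of all genes were called. At an unadjusted p under 0.05 edgeR had 2 of the 6, against 4199 of all 17812 genes. DESeq2 called 2 of the 6, against 11.7% of all genes. Of the 6, 1 (Ncam1) had groups that did not overlap, where 7.5% of all genes had. In IDH1_R132H tumours 1 of the 6 was called (Gfra1), against 7.17% of all genes, and 3 did not overlap (Gdnf, Gfra1 and Ncam1), against 38.2% of all genes. In IDH1WT tumours edgeR called 0 of the 6, against 1.72% of all genes, and DESeq2 called 1, against 7.14%. At an unadjusted p under 0.05 edgeR had 2 of the 6, against 3374 of all 17812 genes. Of the 6, 4 did not overlap, against 31.9% of all genes. In PDGFA tumours edgeR called 0 of the 6, against 0.303% of all genes, and DESeq2 called 0, against 2.72%. At an unadjusted p under 0.05 edgeR had 0 of the 6, against 1887 of all 17812 genes. Of the 6, 1 (Ncam1) did not overlap, against 15.8% of all genes. The shares called by edgeR depend on single libraries. Without normal brain 1, 2 or 3, edgeR called 0, 1 and 3 of all genes in the tumours together. In IDH1_R132H tumours it called 0, 0 and 1. Tumour libraries mattered too: edgeR called 1 gene in IDH1_R132H tumours without IDH1_R132H tumour 2, and 2536 in the tumours together without PDGFA tumour 1. The median log2 fold change of the 6 was 0.02, 0.07, 0.03 and 0.14 in these 4 comparisons, beside medians of -0.01, -0.01, -0.01 and 0.00 over all genes tested.

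**Figure D4:**
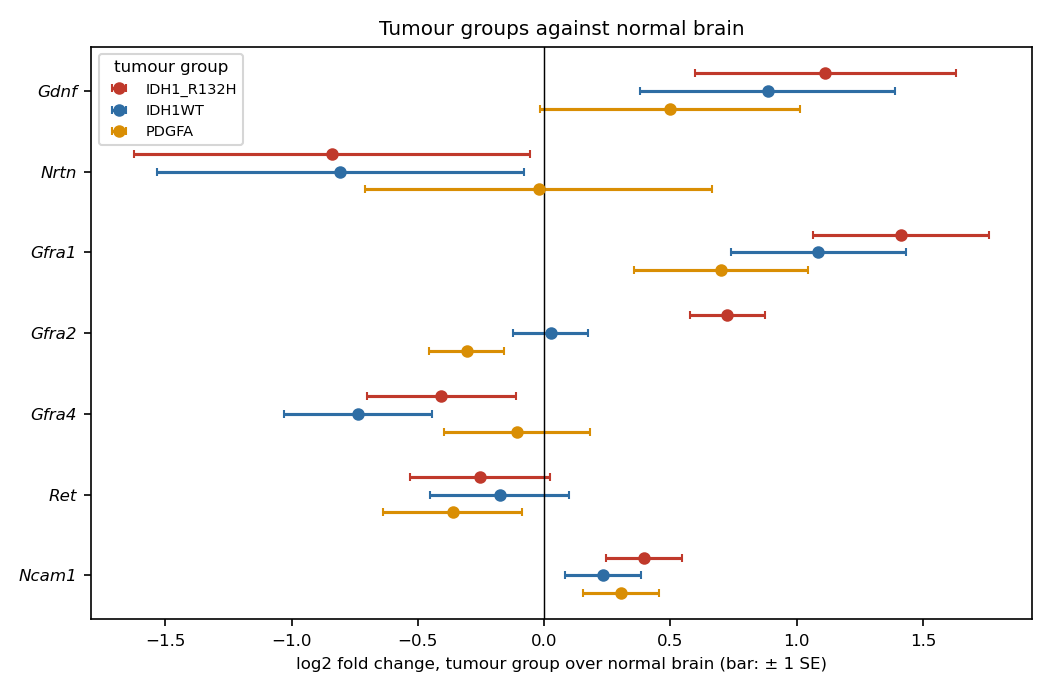
Log2 fold change of each member in IDH1_R132H, IDH1WT and PDGFA tumours over normal brain (horizontal axis; bars are 1 SE on each side). Gfra1 and Gdnf lie to the right of 0 in all 3 tumour groups, Gfra4 and Ret to the left, and Gfra2 spans from -0.31 in PDGFA tumours to 0.73 in IDH1_R132H tumours.

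Genes around the receptors were read from lists written from general knowledge, but with earlier results of these data known. Counts and medians over a list are therefore a description, also where the share of all genes stands beside them. Of 7 other proteins that bind or sort family members, 3 were tested and 1 rose in tumours, where 3.71% of all genes were called higher: Sdc3 (syndecan-3, a heparan sulfate proteoglycan that binds GDNF). Sdc3 averaged 622 ± 118 CPM in IDH1_R132H tumours, 425 ± 144 CPM in IDH1WT tumours and 284 ± 164 CPM in PDGFA tumours, against 168 ± 11.1 CPM in normal brain (SD, n = 3 each). Its log2 fold change was 1.33 (edgeR, SE 0.313, adjusted p = 0.0331) in tumours together and 1.89 (edgeR, SE 0.364, adjusted p = 0.0185) in IDH1_R132H tumours over normal brain. Gas1, which resembles the GFRA proteins, had 1.13 (edgeR, SE 0.507, adjusted p = 0.2) in tumours together. Gas1 passed the edgeR test without PDGFA tumour 1 (adjusted p = 0.00788), without PDGFA tumour 1 and IDH1_R132H tumour 3 (0.00523) and without a filter on low counts (0.000379). Sorl1, a sorting receptor for GDNF and GFRA1, had -0.46 (edgeR, SE 0.247, adjusted p = 0.284).

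Of 20 genes that carry or regulate the RET signal, mainly adaptors and enzymes and all tested, 2 rose in tumours, where 3.71% of all genes were called higher. The other 18 did not pass the test, and the median log2 fold change of the 20 was 0.03. Fyn, a SRC-family kinase used by both RET and NCAM, averaged 186 ± 61.5 CPM in tumours, against 65.4 ± 6.71 CPM in normal brain, a log2 fold change of 1.47 (edgeR, SE 0.272, adjusted p = 0.0173). Gab1, a docking protein that links receptors to PI3 kinase, averaged 91.1 ± 31.7 CPM in tumours, against 34 ± 3.28 CPM in normal brain, a log2 fold change of 1.40 (edgeR, SE 0.279, adjusted p = 0.0209). The same number, 2 of 20, were called in IDH1_R132H tumours, where 4.83% of all genes were called higher, and in IDH1WT tumours, where 1.57% were. In PDGFA tumours edgeR called 0 of the 20, where 0.303% of all genes were called. At an unadjusted p under 0.05 edgeR had 2 of the 20, against 1887 of all 17812 genes. DESeq2 called 1 of the 20, against 2.72% of all genes, and limma called 0 of either. Shc2, the next by p, had -0.35 (edgeR, SE 0.135, adjusted p = 0.136).

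Of 11 genes known to be induced by GDNF and RET in the kidney bud or in spermatogonial cells, 10 were tested, and 6 of them rose in tumours, where 3.71% of all genes were called higher. The largest change was in Cxcr4, a chemokine receptor, at 2.77 (edgeR, SE 0.424, adjusted p = 0.0125) on the log2 scale. Etv4 (an ETS transcription factor) followed at 2.36 and Spry1 (a feedback inhibitor of receptor kinases) at 2.34, with Myb at 1.87, Bcl6b at 1.63 and Dusp6 (an ERK phosphatase) at 0.93, with edgeR adjusted p from 0.0176 to 0.0413. Etv5, the close relative of Etv4, had 0.22 (SE 0.276) and Lhx1 had -1.07 (SE 0.460), and neither passed the test. The median of the 10 was 1.44, beside -0.01 over all genes, with 6 called in IDH1_R132H tumours (4.83% of all genes) and 3 in IDH1WT tumours (1.57%) over normal brain. In PDGFA tumours over normal brain edgeR called 0 of the 10, where 0.303% of all genes were called. At an unadjusted p under 0.05 edgeR had 6 of the 10, against 1887 of all 17812 genes. DESeq2 called 4 of the 10, against 2.72% of all genes, and limma called 0 of either. Several of these genes respond to other receptor kinases as well. Markers of several cell types lay in the same direction, and those of others did not. In tumours over normal brain the median log2 fold change was -0.47 for neuron, -0.38 for GABAergic interneuron and -0.29 for dopamine neuron markers. It was -0.14 for astrocyte, 0.004 for striatal neuron and 0.17 for oligodendrocyte markers. Of the precursor markers 9 of 10 were called higher in tumours, with a median log2 fold change of 2.91. Of the 10 microglia and macrophage markers edgeR called 0 and DESeq2 called 4 higher. Their median log2 fold change was 1.04, with 9 of 10 above 0. Their sum was 192 to 362 CPM in IDH1_R132H tumours, 165 to 267 CPM in IDH1WT tumours and 28.4 to 316 CPM in PDGFA tumours. In normal brains it was 102 to 175 CPM. Of the endothelial markers 6 of 10 were called higher, with a median of 0.91, and their sum was 233 to 271 CPM in IDH1_R132H tumours, 266 to 350 CPM in IDH1WT tumours and 196 to 305 CPM in PDGFA tumours, against 145 to 167 CPM in normal brains. Which receptor or cell type these changes belong to was not tested.

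Of 11 NCAM partners and polysialic acid enzymes, all tested, 1 rose, where 3.71% of all genes were called higher. It was Fyn, already counted among the genes of the RET signal. Of the 11, 1 fell (Fgfr2), as did 1.5% of all genes. The other 9 did not pass the test, and the median log2 fold change of the 11 was -0.04. Fgfr2, a fibroblast growth factor receptor that NCAM can engage, averaged 36.4 ± 7.58 CPM in tumours, against 60.6 ± 9.12 CPM in normal brain, a log2 fold change of -0.74 (edgeR, SE 0.165, adjusted p = 0.0284). Ncam2, the paralog of Ncam1, had 0.21 (edgeR, SE 0.117, adjusted p = 0.302). All 10 pathway genes called in tumours against normal brain lost their call when normal brain 1, 2 or 3 was left out, with edgeR adjusted p between 0.0825 and 0.179.

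**Figure D5:**
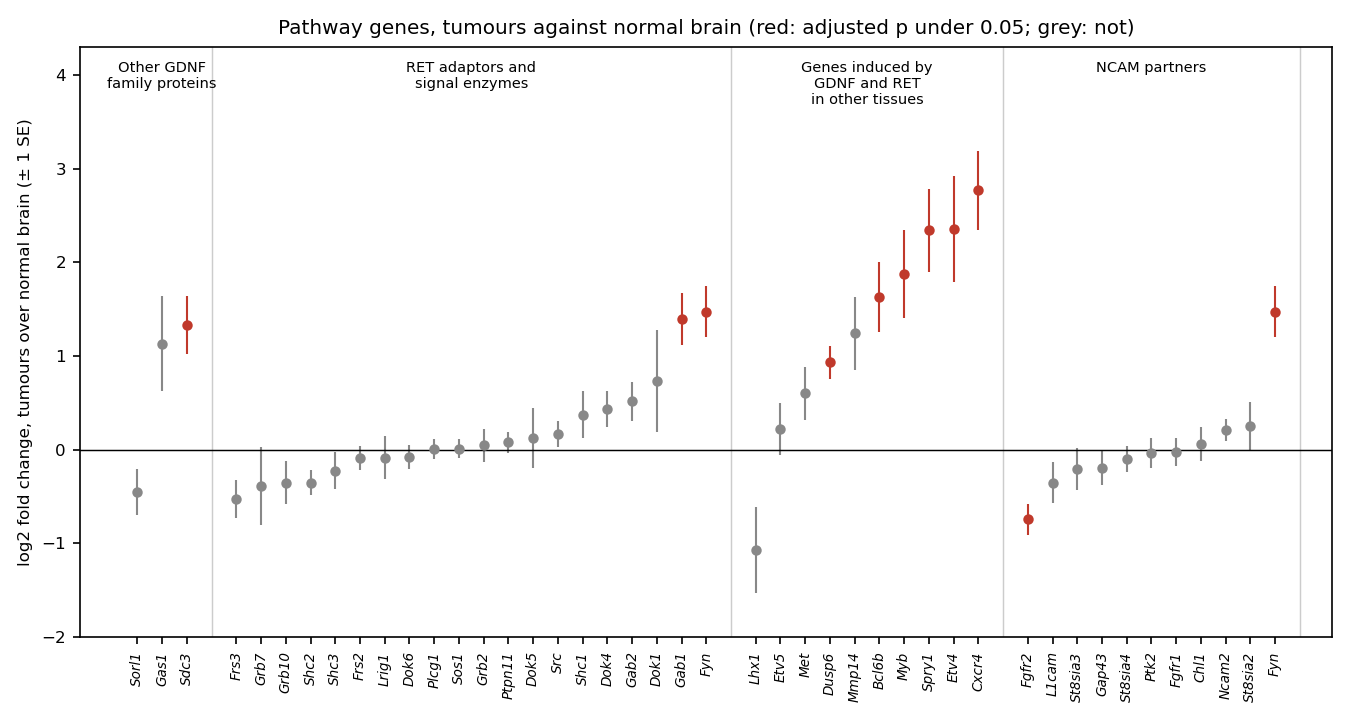
Log2 fold change of tumours over normal brain (vertical axis; bars are 1 SE on each side) for the tested genes of 4 pathway lists; red points passed the test at an adjusted p under 0.05 and grey points did not. Red points number 6 among the tested genes induced by GDNF and RET in other tissues and 2 among the 20 genes that carry or regulate the RET signal. Of all genes, 3.71% were called higher, and the lists were not tested against each other. They were written with earlier results of these data known.

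The genes whose levels were most like Gfra2 over the 12 libraries, among 10017 genes with a mean log2 CPM of at least 3, were Nrxn2, Tmem132d, Pappa, Sccpdh, Pacsin2 and Cxxc5. Nrxn2, a presynaptic adhesion molecule, had an r of 0.94 and a rho of 0.839, and an r of 0.864 without IDH1_R132H tumours 1 and 2, the libraries farthest from the median. The others had an r of 0.845 (Cxxc5) to 0.928 (Tmem132d), and of 0.616 (Sccpdh) to 0.797 (Tmem132d) without those libraries. Over the 9 tumours Nrxn2 ranked the libraries in the same order as Gfra2 (r of 0.96, rho of 1). Nrxn2 averaged 569 ± 74.2 CPM in IDH1_R132H tumours, 421 ± 57.2 CPM in IDH1WT tumours and 362 ± 19.1 CPM in PDGFA tumours, against 377 ± 23.9 CPM in normal brain (SD, n = 3 each). Over the 9 tumours the 6 nearest were Nrxn2, Sccpdh, Tmem132d, Pappa (a protease that cleaves IGF-binding proteins), Ptprt (a receptor tyrosine phosphatase) and Slc1a1 (a neuronal glutamate transporter), with r between 0.90 and 0.96. Without IDH1_R132H tumours 1 and 2 their r lay between 0.709 (Ptprt) and 0.939 (Nrxn2). Genes taken for the highest r out of 10017 over so few libraries will include some by selection, and these values are a description.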

How the data were processed

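The submitters' processing notes name the aligner STAR 2.5.2b, the Subread package with featureCounts 1.5.1, DESeq2 1.16.1 and the build GRCm38. Annotation, strand setting and the treatment of multiply matching reads: not given in the sources used here. The authors deposited raw read counts for 49671 genes, used throughout, and a table of log2 values (rlog, by the table's own name) for 23792 genes, used only as an alternative. From the counts, genes were named with GENCODE M21, filtered (filterByExpr, minimum count 10, minimum total 15), scaled with TMM and fitted in R 4.3.3 with edgeR 4.0.16 (robust quasi-likelihood, 1 coefficient per group, 8 residual degrees of freedom) at an adjusted p threshold of 0.05. TMM centres the typical gene, which hides any shift common to the bulk of genes. RPKM is scaled CPM per kilobase of merged exons. Correlations used log2 CPM with a prior count of 2. The procedure was tested on simulated counts. The common biological coefficient of variation was 26.5%. Alternatives were RLE scaling, no filter, DESeq2 1.42.0, limma 3.58.1 on the rlog values, and libraries left out. Each SE is the absolute log2 fold change divided by the square root of edgeR's F statistic. It reflects the spread between libraries as moderated over genes by the model. For Gfra2 the SE comes from the fit on which the gene was selected, and it is a description. Libraries are numbered in record order only. The 7 members and all lists were chosen with earlier results of these data known, so no p-value is given over a list, and Gfra2 has none at all. Named pathway genes are the called members and the 3 with the smallest p of each list, every one of the other ligands and receptors, and the 6 genes most like Gfra2; Etv5, Lhx1 and the marker genes given as examples were named after their values were seen. A comparison of co-receptor sequences is not reported here.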

Additional observations from a re-analysis of the deposited data

Results flagged for a closer look

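The Gfra2 values of IDH1_R132H and PDGFA tumours lay on opposite sides of those of normal brain. All 3 IDH1_R132H tumours (53.9 to 65.7 CPM) lay above, and all 3 PDGFA tumours (26.6 to 34.8 CPM) below, the 3 normal brains (36.0 to 37.9 CPM), and the log2 fold change of IDH1_R132H over PDGFA tumours was 1.03 (SE 0.150). Of all genes, 38.2% did not overlap between IDH1_R132H tumours and normal brain, and 15.8% between PDGFA tumours and normal brain. Each share counts both directions in its own comparison, and the share of genes opposed in this way was not counted. This opposition was noticed in the values, which include those on which Gfra2 was selected, and the difference was not tested. The same normal brains serve both comparisons. Without IDH1_R132H tumour 3 and PDGFA tumour 1, the log2 fold change was 1.23.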

How the results depend on the processing

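No paired analysis was possible because the labels give the libraries no shared numbers. Member separations were the same in 56 of 56 cases on RLE-scaled CPM and on the rlog values. Counts of called genes moved with the processing. For tumours against normal brain edgeR called 929 genes, against 2204 without a filter, 2084 by DESeq2 and 2928 without IDH1_R132H tumour 3 and PDGFA tumour 1. In that order of settings the counts were 1278, against 2468, 2438 and 2167, for IDH1_R132H over normal brain, and 307, against 1555, 1272 and 1300, for IDH1WT over normal brain, with 70 by limma on rlog values. For PDGFA over normal brain they were 54, against 958, 484 and 970, with 70 under RLE and 0 by limma. Between tumour groups, where edgeR called 0, the counts without a filter were 278 (IDH1_R132H against other tumours), 79 (against IDH1WT), 627 (against PDGFA) and 261 (IDH1WT against PDGFA). DESeq2 called 24 for IDH1_R132H against other tumours, 146 against PDGFA and 12 for IDH1WT against PDGFA. Limma called 1 for IDH1_R132H against other tumours, and leaving out both libraries gave 1 for IDH1_R132H and 3 for IDH1WT, both against PDGFA. Leaving out single libraries gave ranges of 0 to 2536, 0 to 2303, 0 to 1090 and 0 to 828 against normal brain, and 0 to 1, 0 to 0, 0 to 43 and 0 to 1 between tumours. Without normal brain 1, 2 or 3 the tumour calls fell to 0, 1 and 3. In IDH1_R132H tumours against the others, Gfra4 reversed to -0.019 without a filter, -0.006 by limma and -0.22 without both libraries, and Ret to -0.024 without a filter; leaving out single libraries gave -0.33 to 0.26, -0.12 to 0.16 and, for Nrtn, -0.82 to 0.12. In PDGFA tumours over normal brain Nrtn reversed to 0.008 by DESeq2, and the single-library ranges were -0.46 to 0.44 for Nrtn, -0.088 to 0.82 for Gdnf and -0.31 to 0.10 for Gfra4. Gfra1 in PDGFA tumours was called without both libraries (1.01, adjusted p = 0.0438), and Myb lost its call by limma (adjusted p = 0.0625). On the shrunken rlog scale the Gfra2 difference from other tumours was 0.56. The causes were not tested. Gdnf and Nrtn rest on 5 to 22 and 1 to 17 reads per library.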
